A study of Mus musculus with 31 samples.

Results

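The 8 genes described here encode small proteins that cross the membrane several times: Ms4a1, Ms4a4c, Ms4a6b, Ms4a6c, Ms4a6d and Ms4a7 of the Ms4a family, and Tmem176a and Tmem176b. They were chosen by symbol from the 47069 genes of the deposited tables, each symbol matched 1 row, and the choice was made with measured values of these cells known. Their levels are followed over 31 single cells, and again within the 20 cells in which Lyz2, the lysozyme gene of myeloid cells, reached 1000 FPKM (a fragment count corrected for transcript length and library size). These 20 are called Lyz2-high cells and the other 11 the remaining cells.

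Ms4a proteins are thought to act beside receptors in the plasma membrane and in endosomes. The best known is CD20, encoded by Ms4a1, a surface protein of B cells and a target of therapeutic antibodies, while several relatives are used to tell monocytes and macrophages apart. Tmem176a and Tmem176b are relatives encoded side by side, with products in internal membranes of antigen-presenting cells, where TMEM176B is known as a cation channel that restrains the inflammasome, the complex that matures interleukin 1 beta.

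All cells came from the right lung lobes of 10-week-old mice with the genotype Csf1r-GFP, in which a green fluorescent protein reports the gene of the CSF1 receptor, a receptor of monocytes and macrophages. The lungs were taken 7 days after a sham operation in which the chest was opened. The sort label reads CD45+, CSF1R-GFP+, F4/80+ and Ly6G, the last without a sign. No animal is named in the labels and there is 1 group. The cells therefore count as 1 sample, they are not replicates, and no test was made.

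Each cell was lysed on a Fluidigm C1 chip, polyadenylated RNA was amplified with a SMARTer kit, and NexteraXT libraries, which do not keep the strand, were sequenced. Lyz2-high libraries held 521492 to 4059833 expected counts per cell (median 1591648) and the remaining 11 held 120835 to 1592301 (median 413337). Nuclear protein-coding genes took 87.4 to 95.6% of counts in Lyz2-high cells and 32.8 to 87.9% in the remaining cells, 10 of which lay at 61.6% or below. The exception among the 11 was cell F11, at 87.9%, in which Lyz2 was at 0. Of the genes behind the sort label, Csf1r was present in 20 of 20 Lyz2-high cells and 7 of 11 remaining cells, Ptprc (CD45) in 19 and 5, and Adgre1 (F4/80) in 15 and 1. Nearest the Lyz2 line were cell C7 inside it, at 1229 FPKM, and cell D10 outside it, at 553 FPKM.

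The 6 Ms4a genes lie within 355175 bases of chromosome 19, in GRCm38 coordinates, and all 8 are protein-coding. In order along the chromosome they are Ms4a1 (chr19:11249675-11266241, minus strand), Ms4a7 (chr19:11321039-11336146, minus), Ms4a4c (chr19:11404770-11427246, plus), Ms4a6c (chr19:11469366-11482192, plus), Ms4a6b (chr19:11516512-11531256, plus) and Ms4a6d (chr19:11586604-11604849, minus). Tmem176b (chr6:48833818-48841496, minus) and Tmem176a (chr6:48840919-48847071, plus) point away from each other on chromosome 6, and their gene bodies overlap by 578 bases. Reads from that overlap cannot be given to a strand in these libraries. Of the 50-base windows in Tmem176a transcripts, 0.333% also occur in Tmem176b transcripts.

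The neighbours Ms4a6b and Ms4a6c are shown by the exon-free sequence upstream of their RefSeq starts. These stretches are alike, and any tie between them and the cells that held the genes was not tested. The Ms4a6b stretch lies inside the gene body given above, while the Ms4a6c stretch ends just before its gene body. Both come from the RefSeq promoter table on GRCm38.p6, both read along the plus strand, and the capitals mark a 24-base run that they share and that occurs in 2 of 32851 promoter windows of 300 bases, those of these genes.
Ms4a6b, chr19:11518309-11518452: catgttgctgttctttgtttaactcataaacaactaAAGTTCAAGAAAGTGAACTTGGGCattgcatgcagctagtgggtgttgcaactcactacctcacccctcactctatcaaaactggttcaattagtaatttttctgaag
Ms4a6c, chr19:11469118-11469365: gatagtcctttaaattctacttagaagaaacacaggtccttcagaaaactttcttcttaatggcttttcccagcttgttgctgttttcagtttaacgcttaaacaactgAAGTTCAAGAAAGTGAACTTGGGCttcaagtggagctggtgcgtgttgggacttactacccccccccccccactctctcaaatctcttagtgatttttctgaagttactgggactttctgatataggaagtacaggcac
A local alignment of both stretches paired 134 bases, of which 116 (86.6%) were identical, with 12 gap bases. RefSeq windows were found for 6 of the 8 members. A search of these on both strands for GAGGAAGT, TTGCNNAA, a GAAA run followed 2 bases later by another, and TATAAA found no match in any member window, while 3.20%, 10.8%, 3.44% and 13.6% of the 32851 windows hold them, in that order. The absence says only that these letters are not in these windows.

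In Lyz2-high cells the members ranged from a gene in nearly every cell to a gene in a single cell. A gene was called present at 1 FPKM or more. Ms4a6c led with 18 of 20 cells (90%, with a Clopper-Pearson exact interval at 95% of 68.3 to 98.8%), Tmem176b in 13, Ms4a6b in 10, Ms4a4c and Ms4a7 in 8 each, Tmem176a in 7, Ms4a6d in 6 and Ms4a1 in 1. The interval covers counting error over cells only. A cell held 0 to 6 members, with a median of 4. Cells B4 and D6 held 6, while D4 held none in spite of 1703657 counts and Lyz2 at 4075 FPKM. Summed over the members, levels ran from 0 to 7233 FPKM (median 3008).

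By mean FPKM over the 20 Lyz2-high cells, Ms4a6c led at 800 ± 537, with Tmem176b next at 762 ± 852 (SD over cells, n = 20). Ms4a7 followed at 392 ± 609, Tmem176a at 366 ± 601, Ms4a4c at 243 ± 379, Ms4a6b at 216 ± 454, Ms4a6d at 146 ± 262 and Ms4a1 at 2.78 ± 12.2. Each neighbouring pair in this order differed by less than the larger of their SDs over cells, so the order between neighbours is not resolved. For every member but Ms4a6c, the SD exceeded the mean.

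**Figure D1:**
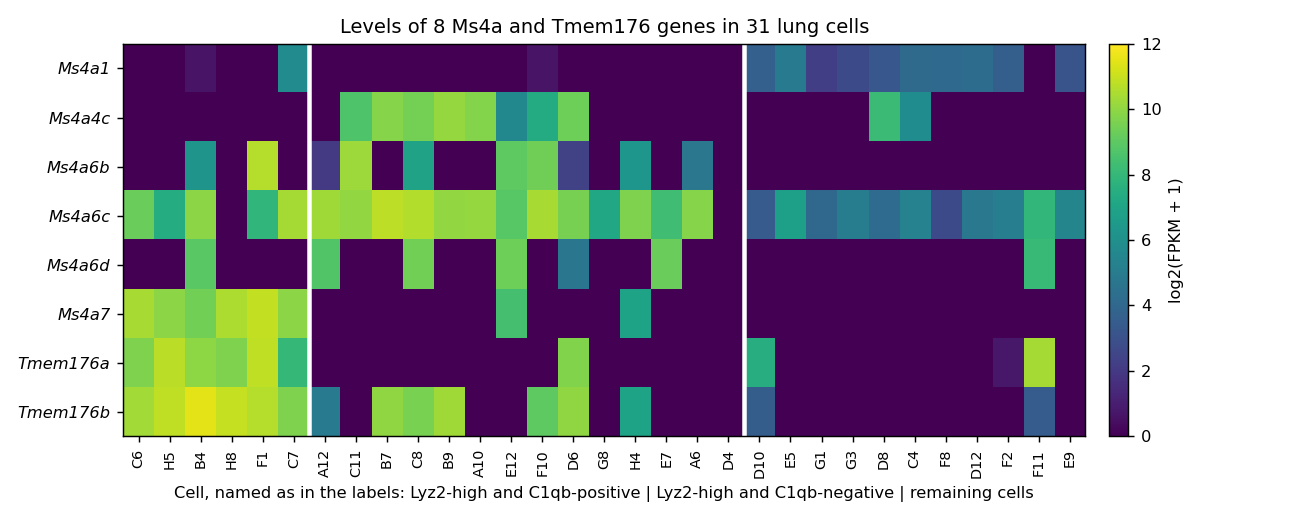
Each column is a cell and each row a member, coloured by log2(FPKM + 1); white lines part the 6 Lyz2-high cells with C1qb, the 14 Lyz2-high cells without it and the 11 remaining cells. Ms4a7, Tmem176a and Tmem176b fill the left block together, Ms4a4c lies mostly in the middle block, and low Ms4a1 and Ms4a6c values run through the right block.

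Ms4a6c was the broadest member. Its 18 Lyz2-high cells held 147 FPKM in G8 to 1807 FPKM in B7, with a median of 942 FPKM among them. It was at 0 in H8 and D4, cells of 2568955 and 1703657 counts. The highest level, in B7, was 1.92 times the median of the cells holding it. In counts scaled to library size alone, which does not correct for length, the ratio was 2.84. There B7 was not the highest cell, as C8 held 1348 of 521492 counts against 1164 of 1027456 in B7. Reads of Ms4a6c can be shared with other genes: 51.4% of its 50-base windows occur in another gene, 49.6% in BE692007 and 5.85% in Ms4a6b. Estimated counts were not whole (by more than 0.005) in 8 of its 18 Lyz2-high cells. BE692007 took 8.03% of the counts of both genes in these cells. In F1 it took more than Ms4a6c, at 1362 against 1239 estimated counts, so the level of 236 FPKM for Ms4a6c there is uncertain.

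Ms4a6b, studied in mouse T cells as a partner of costimulatory receptors, was present in 10 Lyz2-high cells over a wide range. It reached 1633 FPKM in F1, 1203 in C11, 669 in F10 and 513 in E12. It was at 119 in C8, 79.2 in H4, 74.1 in B4 and 26.3 in A6, and at 4.09 in D6 and 3.16 in A12. All its counts were whole, and the 8119 counts in F1 were the largest count of any member. All 10 cells also held Ms4a6c. The levels of both genes were only weakly related over the 20 cells (Pearson r 0.30 on log2(FPKM + 1)). The cell highest in Ms4a6b, F1, was the third lowest in Ms4a6c among the 18 that held it. That rank rests on the Ms4a6c level of F1 that is called uncertain above.

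Ms4a6d was present in 6 Lyz2-high cells, at 702 FPKM in C8, 660 in E12, 621 in E7, 482 in B4, 431 in A12 and 25.6 in D6. The values of C8, E12, E7, B4 and A12 lie close together and D6 stands well below them. All but E7 also held Ms4a6b (83.3% of Ms4a6d cells, 50% of Ms4a6b cells), and all held Ms4a6c. The 3 Ms4a6 genes were thus present together in 5 of 20 cells: A12, B4, C8, D6 and E12.

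Ms4a4c, a family member known from monocytes and lymphocytes of the mouse, was present in 8 Lyz2-high cells. They held 1102 FPKM in B9, 894 in B7, 875 in A10, 715 in C8, 643 in D6, 412 in C11, 166 in F10 and 46.9 in E12. All 8 also held Ms4a6c. Ms4a4c shares 8.19% of its 50-base windows with other genes, 7.73% with Ms4a4b, and all its counts were whole.

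Ms4a7, a family member found in mature macrophages, was also present in 8 Lyz2-high cells, nearly all of them others. It stood at 1890 FPKM in F1, 1470 in H8, 1380 in C6, 967 in C7, 965 in H5, 701 in B4, 350 in E12 and 123 in H4. Only E12 held Ms4a4c and Ms4a7 at once (12.5% of the cells of each gene), with Ms4a4c at its lowest value there. Together the genes covered 15 of the 20 cells, leaving A12, A6, D4, E7 and G8 with neither. Pearson r was -0.53 over 20 cells that came from 1 sample and differ in depth, and it is given as a description.

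At the minimum of 1 FPKM, Tmem176a was never present without Tmem176b. In the remaining cells F11 and D10, described below, this rests on 14 and 5 counts of Tmem176b. In the 7 Lyz2-high cells with Tmem176a, its level was 1837 FPKM in F1, 1749 in H5, 989 in B4, 839 in D6, 829 in H8, 818 in C6 and 254 in C7. Tmem176b in the same cells stood at 1637 FPKM in F1, 1837 in H5, 2923 in B4, 1019 in D6, 1977 in H8, 1281 in C6 and 829 in C7. The ratio of Tmem176b to Tmem176a thus ran from 0.891 to 3.27 (median 1.57), and each gene had at least 387 counts in every one of these cells. In 6 more Lyz2-high cells Tmem176b was present with Tmem176a at 0: 1253 FPKM in B9, 1039 in B7, 767 in C8, 522 in F10, 123 in H4 and 29.1 in A12. Median Tmem176b was 1637 FPKM in the 7 cells with both genes and 644 FPKM in these 6, and the ranges overlapped. Tmem176a cells were 100% within Tmem176b cells, while 53.8% of Tmem176b cells held Tmem176a.

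**Figure D2:**
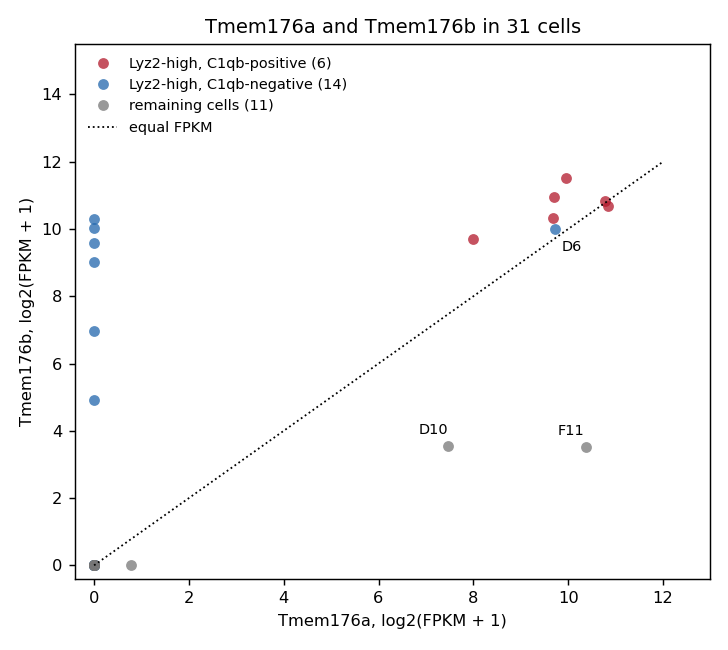
Each point is a cell, placed by Tmem176a (horizontal) and Tmem176b (vertical) as log2(FPKM + 1), coloured by group, with a dotted line at equal FPKM. The 7 Lyz2-high cells with both lie near or above the line, 6 Lyz2-high cells with Tmem176b alone lie on the left axis, and the remaining cells F11 and D10 lie far below the line.

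The remaining cells F11 and D10 had the opposite balance. F11 held Tmem176a at 1334 FPKM (1336 counts) and Tmem176b at 10.3 FPKM (14 counts), a ratio of 0.00776. D10 held 175 FPKM (73 counts) and 10.6 FPKM (5 counts), a ratio of 0.0607. Both ratios lie below those of all 7 Lyz2-high cells with the pair.

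**Figure D3:**
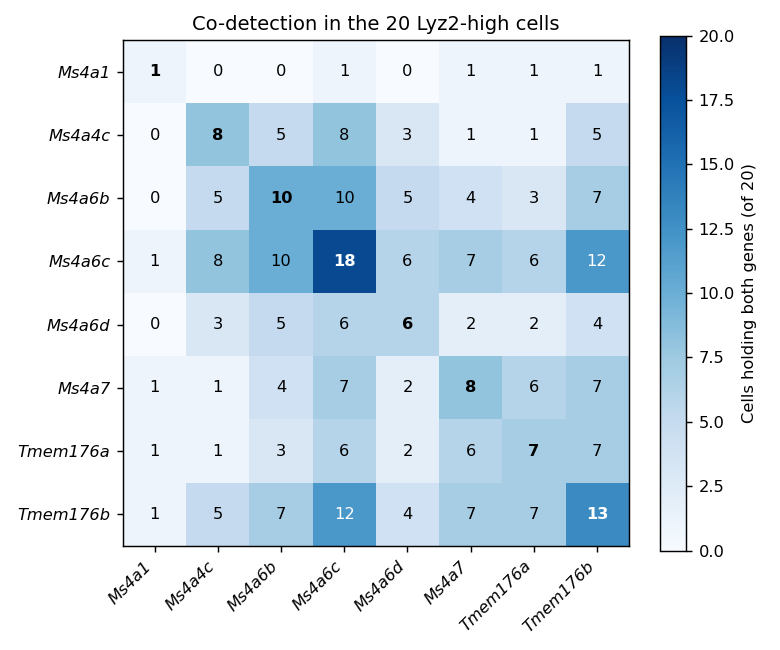
Each square gives the number of the 20 Lyz2-high cells in which both genes of its row and column were present, and the diagonal (bold) the cells holding each gene. Ms4a7, Tmem176a and Tmem176b share 6 or 7 cells in each pairing, whereas Ms4a4c shares 1 cell with Ms4a7 and 1 with Tmem176a.

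Ms4a7, Tmem176a and Tmem176b were present together in 6 cells: B4, C6, C7, F1, H5 and H8. These were also the 6 Lyz2-high cells that held C1qb, a chain of complement C1q made by tissue macrophages. Ms4a7 and Tmem176a shared 75% of Ms4a7 cells and 85.7% of Tmem176a cells (r 0.76). Ms4a4c behaved otherwise, sharing 1 cell with Tmem176a (D6) and 5 with Tmem176b.

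Set by C1qb, Ms4a7 separated the Lyz2-high cells without overlap. It ran from 701 to 1890 FPKM in the 6 C1qb-positive cells (mean 1229) and from 0 to 350 FPKM in the 14 C1qb-negative cells (mean 33.8), a 36.3-fold difference, or 129-fold without E12. Such a gap was seen for 9 of 3694 genes with values to compare (0.244%). Besides Ms4a7 they were C1qa, C1qb, C1qc, Cd81, Cd9, Cd72, Mgl2 and Col14a1, named after their values were seen. C1qb sets the split, so its gap was fixed in advance. C1qa, Cd81 and Mgl2 were present in exactly the same 6 cells and had enough cells to be compared only through them. Ms4a7 and C1qc, each present in 2 of 14 C1qb-negative cells, and Tmem176a, present in 1 of 14, also had enough cells only through these 6. The share of genes with a gap is therefore a description and no support for Ms4a7. For Cd72 and Col14a1 the lowest C1qb-positive value was under 1 FPKM. Depth of the groups overlapped, at 767318 to 4059833 counts in C1qb-positive cells and 521492 to 3526674 in C1qb-negative cells.

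Tmem176a was present in all 6 C1qb-positive cells (254 to 1837 FPKM, mean 1079) and in 1 of 14 C1qb-negative cells (D6, 839 FPKM, group mean 59.9), an 18-fold difference that has no finite value without D6. Tmem176b was present in 6 of 6 C1qb-positive cells (829 to 2923 FPKM, mean 1747) and in 7 of 14 C1qb-negative cells (0 to 1253 FPKM, mean 339), a 5.15-fold difference with overlap. Ms4a4c went the other way, at 0 in all 6 C1qb-positive cells, which allows a share of up to 50%, and present in 8 of 14 C1qb-negative cells (mean 347 FPKM). Ms4a6d was present in 1 of 6 (B4 alone) and 5 of 14, 0.461-fold by mean.

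Ms4a6c was present in 5 of 6 C1qb-positive cells and 13 of 14 C1qb-negative cells, 0.613-fold by mean, and Ms4a6b in 2 of 6 and 8 of 14, 1.52-fold. The Ms4a6b value has no settled direction, at 0.0793-fold without F1 and 2.62-fold without C11. Ms4a1 did not pass the filter on low values. Of the 7 members that passed, 3 were at least 2-fold higher in C1qb-positive cells and 2 at least 2-fold lower. The background was 20.7% of 3694 genes higher and 38.4% lower, and the median log2 fold over all of them was -0.43.

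**Figure D4:**
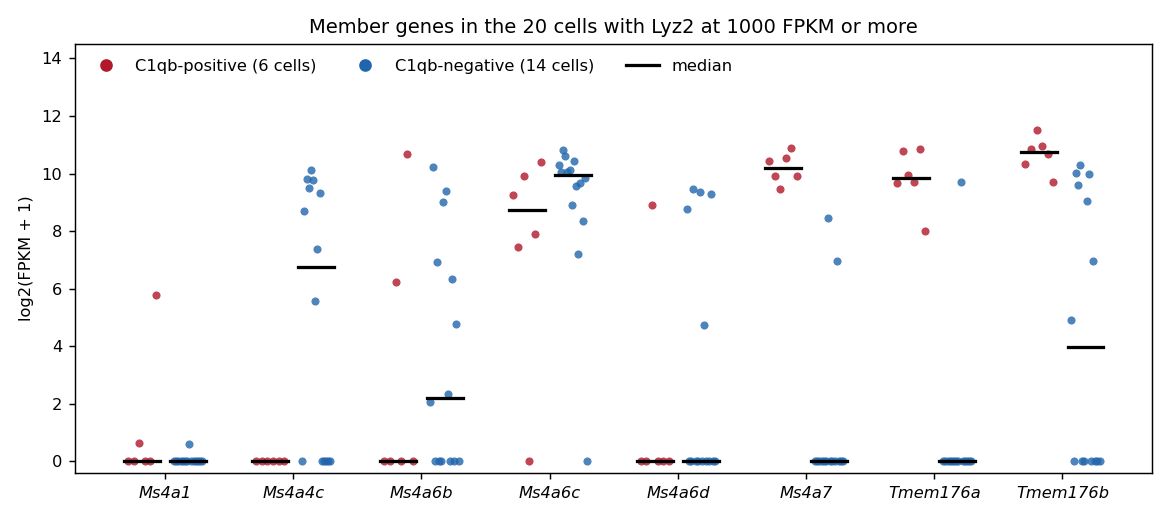
Points are the 20 Lyz2-high cells by member, as log2(FPKM + 1), with C1qb-positive cells in red on the left, C1qb-negative cells in blue on the right and bars at the medians. The red and blue points of Ms4a7 do not overlap, D6 is the single blue point of Tmem176a off 0, and all red points of Ms4a4c are at 0.

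From a list of 14 B cell genes, Ighm, Bank1 and Cd79b were the 3 present in any Lyz2-high cell. Bank1 was present in F1 alone and Cd79b in C7 alone, so that in the other cells the sum is Ighm, which was present in exactly the 7 cells with Tmem176a. The summed level was 291 to 1454 FPKM in C1qb-positive cells and 0 to 508 FPKM in C1qb-negative cells. Pax5, Igkc and Ighd were at 0 in all 31 cells, and Cd79a was at 0 in all 20. The part of B cell RNA in the differences above was not tested.

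Ly6c2, a surface antigen gene of classical monocytes, divided the Lyz2-high cells into 10 and 10. All 6 C1qb-positive cells were Ly6c2-negative and H2-Aa-positive, so this split and the H2-Aa split below partly repeat the C1qb split. The 6 Ly6c2-negative cells with Ms4a7 were these C1qb-positive cells, and of the Ly6c2-negative cells with Tmem176a all but D6 were. Tmem176a was at 0 in all 10 Ly6c2-positive cells, which allows a share of up to 30%, and present in 7 of 10 Ly6c2-negative cells. Ms4a7 was present in 2 of 10 and 6 of 10, 0.0642-fold by mean (0.0186-fold without E12), and Tmem176b in 5 and 8, 0.267-fold. Ms4a4c was present in 5 Ly6c2-positive and 3 Ly6c2-negative cells, 2.97-fold by mean (5.65-fold without D6), and Ms4a6d in 4 and 2, 4.75-fold (84.9-fold without B4). Ms4a6b was present in 5 of each, 0.207-fold by mean (0.0707-fold without E12, 0.342-fold without F1). The ranges of both groups overlapped for each of these genes. Of the 7 members that passed the filter, 2 were at least 2-fold higher and 4 lower, against a background of 28.7% of genes higher and 25.8% lower.

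H2-Aa, which encodes a chain of the MHC class II molecule that presents antigen, was present in 13 Lyz2-high cells and not in 7. Every Ms4a7 cell (8 of 13) and every Tmem176a cell (7 of 13) was H2-Aa-positive, and both genes were at 0 in the 7 H2-Aa-negative cells, which allows a share of up to 42.9%. The Ms4a7 cell H4 and cell D4 were H2-Aa-positive at only 1.5 and 1.82 FPKM, and with a minimum of 5 FPKM, added after the data were seen, Ms4a7 was present in 7 of 11 H2-Aa-positive and 1 of 9 H2-Aa-negative cells. Tmem176b was present in 11 of 13 H2-Aa-positive and 2 of 7 H2-Aa-negative cells, 3.04-fold by mean (4.77-fold without B7, 5.75-fold without B9). Ms4a4c was present in 4 of 13 and 4 of 7, 0.258-fold (0.152-fold without C8, 0.165-fold without D6, 0.391-fold at the 5 FPKM minimum). Ms4a6d was 1.99-fold, or 3.03-fold at that minimum. Thus 3 of the 7 members that passed the filter were at least 2-fold higher and 1 lower, where 30.8% of genes were higher and 23.6% lower.

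Among 3225 other protein-coding genes present in at least 5 Lyz2-high cells, those most like Ms4a7 over the 20 cells were C1qb (r 0.88), C1qa (0.87) and Cd81 (0.87). Those most like Tmem176a were Mrc1, the macrophage mannose receptor (0.91), Cd81 (0.89) and C1qa (0.89). For Tmem176b they were Set (0.87), the metallothionein Mt1 (0.81) and the MHC class II chain H2-Eb1 (0.76). Ms4a6c was most like the widely present Sub1 (0.81), Prdx5 (0.80) and Ndufa6 (0.79). Ms4a6d was nearest to Ndufs4 (0.84), Tomm34 (0.80) and Fam129b (0.78), Ms4a6b to Ifi203 (0.77), Pfkp (0.71) and Nr1h2 (0.68), and Ms4a4c to Emilin2 (0.74), Capns1 (0.73) and Lrrc8c (0.72). These are Pearson correlations of log2(FPKM + 1) over cells that share 1 sample, and for members with 6 to 8 cells above 0 they mostly record which cells hold a gene. Within this ranking Tmem176a stood 11th for Ms4a7, and Ms4a7 stood 17th for Tmem176a.

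Ms4a1 was present in 10 of 11 remaining cells and 1 of 20 Lyz2-high cells. For Ms4a6c the shares were close, at 11 of 11 (interval 71.5 to 100%) and 18 of 20 (68.3 to 98.8%). Ms4a1 alone was higher by mean in the remaining cells, at 11.8 FPKM against 2.78 FPKM in the Lyz2-high cells. Within them it was present in C7 only, at 54.6 FPKM from 282 counts (5% of 20, interval 0.127 to 24.9%), while B4 and F10 held it below 1 FPKM. C7 also held Cd79b at 97.5 FPKM and Ighm at 193 FPKM, but Cd79a, Pax5 and Igkc at 0, together with C1qb at 3729 FPKM and Ms4a7 at 967 FPKM. In the remaining cells Ms4a1 was present in 10 of 11, at 3.69 to 30.9 FPKM, resting on 2.2 to 42.7 estimated counts. These 10 are the libraries with a low protein-coding share, and the counts were not whole in 9 of them. Of the listed B cell genes, Cd79a was present in F8 at 637 FPKM and in C4 at 410 FPKM, Cd22 in D8, D12 and F2, Ebf1 in D8 and F2, and Blk in D10. Across the transcripts of the annotation, 1.21% of its 50-base windows recur in 134 other genes. The part of reads from elsewhere in these low values was not tested.

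Between the groups set by Lyz2, 7 of the 8 members were at least 2-fold higher by mean in Lyz2-high cells, where 47.6% of 5733 genes were, and Ms4a1 was lower at 0.236-fold, or 0.00482-fold without C7, where 37.6% were. Ms4a6c stood at 0 to 1807 FPKM (median 868) in Lyz2-high cells and 5.49 to 249 FPKM (median 32.7) in the remaining cells, a 15.1-fold difference of means with overlap, or 24.1-fold without F11. All 11 of the low values had counts that were not whole. Tmem176b was 400-fold higher by mean, at 762 FPKM in Lyz2-high cells against 1.90 FPKM in the remaining cells, or 736-fold without D10 and 719-fold without F11. Ms4a4c was 7.78-fold higher, Ms4a6d 5.99-fold and Tmem176a 2.67-fold, with 2, 1 and 2 of the 11 remaining cells holding them. These folds rest on single cells: Ms4a4c was 43.8-fold higher without D8, Tmem176a 20.9-fold without F11, and Ms4a6d was at 0 in all remaining cells but F11. Ms4a6b and Ms4a7 were at 0 in all 11 remaining cells, which allows a share of up to 27.3%. Depth and protein-coding share differ between these groups along with Lyz2, and their part in the differences cannot be told apart.

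F11 was the remaining cell with a high protein-coding share. Besides Tmem176a it held Ms4a6d at 268 FPKM and Ms4a6c at 249 FPKM, and its C1qb stood at 258 FPKM with Ms4a7 at 0. Ms4a4c outside the Lyz2-high cells was confined to D8, at 288 FPKM from 16 counts, and C4, at 55.5 FPKM from 41 counts.

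Other genes of the Ms4a family were sparse. Of 15 listed, 13 are in the tables and 5 were present in any cell. Ms4a4a, which encodes a macrophage protein known to associate with the fungal receptor Dectin-1, was present in 8 cells, all Lyz2-high, at 5.87 to 1199 FPKM, of which 1 was C1qb-positive (F1, 473 FPKM) and 7 were C1qb-negative. Ms4a8a was present in C8 at 656 FPKM, B9 at 548, E5 at 190 and F10 at 30.3. Ms4a14 was present in B4 at 191 FPKM, H5 at 108 and G1 at 44.8. Ms4a4b was present in C11 alone at 19.5 FPKM, and Ms4a2, the beta chain of the high-affinity IgE receptor, in D10 alone at 19.1 FPKM. Of receptors known to pair with Ms4a proteins, Fcer1g was present in 20 of 20 Lyz2-high and 3 of 11 remaining cells, Clec7a (Dectin-1) in 15 and 2, and Fcer1a in none.

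Inflammasome genes were listed because of the known role of Tmem176b, and the 8 listed ranged widely in Lyz2-high cells, where the median of 5733 genes was presence in 30% of cells. The sensor gene Nlrp3 and the cytokine gene Il1b were each present in 16 of 20, the adaptor gene Pycard and the protease gene Casp1 in 12 each, Nek7 in 9, Casp4 in 8, Gsdmd in 5 and Il18 in 3. Their summed level was 487 to 1315 FPKM in C1qb-positive cells and 826 to 14513 FPKM in C1qb-negative cells. Il1b made up most of that sum in C1qb-negative cells, with a mean of 166 FPKM (0 to 453) in C1qb-positive cells and 6146 FPKM (0 to 13228) in C1qb-negative cells. Tmem176b was present in 6 of 6 and 7 of 14 of these cells, and its relation to these genes was not tested.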

How the data were processed

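Single-cell RNA libraries of 31 lung cells were analysed. The submitters' processing notes name RSEM, Trimmomatic, CASAVA 1.8 and the GRCm38 build; the order of steps, settings and annotation were not given in the sources used here. In the first table the authors deposited expected counts, which are read counts estimated per gene by RSEM and need not be whole. The deposited FPKM values scale them to transcript length and library. No molecular identifiers were used, so intervals cover counting error only. The count table held 75 columns; 44 matched no labelled cell and were not used. No libraries held identical counts.

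The 31 cells are 1 group and 1 sample, so counts of cells, ranges, means and folds of mean FPKM are given with no test. Presence was FPKM 1 or more, and 0 of n cells allows a share of 3 counts of n. Folds needed a gene present in at least 5 of the cells compared, so a gene could pass through 1 side of a split alone. Members, lists and C1qb, Ly6c2 and H2-Aa splits were chosen with earlier results of these data known. Named are all members, the 3 protein-coding genes most like each member present in 5 or more Lyz2-high cells, other family genes present in any cell, and listed inflammasome, receptor and cell-choice genes; B cell genes, BE692007 and the genes without overlap were chosen after their values were seen. Positions, gene types and transcripts came from GENCODE (GRCm38), promoter windows from RefSeq (250 bases before and 50 after a start). The result of 1 listed gene is not reported here. The correlation code was tested on simulated data and the presence interval at a known value. Python 3.11.15, pandas 2.3.3, numpy 2.4.6 and scipy 1.17.1 were used. Alternatives were other minimums for presence, expected counts, other Lyz2 minimums, high-coding libraries, other pseudocounts, ranks and CPM; leaving out single cells and H2-Aa at 5 FPKM were added after the data were seen.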

Additional observations from a re-analysis of the deposited data

How the results depend on the processing

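Of 290 values recomputed under alternatives, 280 stayed within their interval or spread and 10 moved. Correlations near 0 turned negative by ranks, at -0.03 for Ms4a6c with Tmem176b and -0.07 for Ms4a4c with Tmem176b, against 0.11 and 0.04. Ms4a1 was present in 35.5% of 31 cells, but in 3.23% at 50 FPKM or more and in 4.76% of the 21 libraries in which protein-coding genes took 80% of counts or more; in Lyz2-high cells it was 5%, and 0% with Lyz2 at 5000 FPKM or more, which leaves out C7. Ms4a6c fell to 64.5% of 31 cells at 50 FPKM, against 93.5%. Ms4a4c with Ms4a7 was seen in 0% at 50 FPKM, against 3.23% of 31 and 5% of 20 cells, since E12 holds Ms4a4c below 50 FPKM. The highest over median level of Ms4a6c was 2.84 in CPM, against 1.92, and B7 was not the highest cell in CPM. The cause was not tested. The Tmem176a and Tmem176b correlation was 0.78 by ranks, against 0.66. Over all 31 cells, Ms4a4c with Ms4a7 gave -0.30 and Ms4a6c with Tmem176b 0.39, against -0.53 and 0.11 in Lyz2-high cells. No paired analysis was possible because the cells form 1 group and share no replicate numbers. With 1 sample, no value here can be carried over to other animals. Folds without single cells, added after the data were seen, stand beside the folds.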

Other observations

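Ighm, the constant region of the IgM heavy chain, was present in exactly the 7 Lyz2-high cells that held Tmem176a, the only gene of which this was true, and it was chosen after its values were seen. It stood at 1045 FPKM in F1, 809 in H5, 508 in D6, 458 in B4, 435 in H8, 423 in C6 and 193 in C7, from 452 to 5018 counts. Set against Tmem176a in the same cells, its level was 0.463 to 0.762 of the Tmem176a level (median 0.524), so both rank F1 and H5 highest and C7 lowest. Over the 20 cells Pearson r of log2(FPKM + 1) and Spearman rho were 0.9997 and 0.998, a description of cells that share 1 sample, since 13 of them are at 0 for both. Over the 7 cells with both, Pearson r of FPKM was 0.97 and rho 0.96. Outside the Lyz2-high cells, F11 and D10 held Tmem176a with Ighm at 0. Igkc and Ighd were at 0 in all 31 cells.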
